A study of Homo sapiens with 30 samples.

Results

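MEIS1, MEIS2, MEIS3, PBX2, PBX3 and PBX4 were examined in 10 lists of open chromatin peaks, as 6 of the 20037 protein-coding genes of the GRCh38 table. They were taken by name, and each gene was measured in a window made of its gene body with 50 kb on each side. All 6 passed the filter on low coverage, a mean of at least 1000 bp inside peaks over the 10 lists, which 19006 genes passed. The peaks of the 10 lists merged into 320 regions in these windows, of 493444 in the genome.

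The lists came from OmniATAC-seq, in which the transposase Tn5 cuts accessible DNA, on wild-type H1 cells, an established human embryonic stem cell line. There were 3 libraries for each of 10 groups and 50000 cells for each library. The hPSC group was undifferentiated on day 0. The DE group, definitive ectoderm on day 1, had received the TGF-beta receptor inhibitor A8301, the MEK inhibitor Trametinib, the WNT secretion inhibitor C59 and the BMP receptor inhibitor LDN193189. All later groups passed through DE. On day 2, aNE (anterior neural ectoderm) had received A8301, LDN193189, C59 and Thiazovivin. The day 2 group pNE (posterior neural ectoderm) had received A8301, LDN193189, Thiazovivin, the retinoic acid receptor agonist TTNPB at 50 nM, FGF2 at 20 ng/mL and the tankyrase inhibitor XAV939. Each population was carried to day 4 in Telencephalon, Midbrain or Hindbrain medium, giving aNE_T, aNE_M and aNE_H from the first and pNE_T, pNE_M and pNE_H from the second. Cells kept to day 4 were seeded at 75000 per square cm on the aNE side and 150000 on the pNE side, so origin and seeding density cannot be told apart. The aNE and pNE groups of day 2 were both seeded at 37500 per square cm. What the Midbrain and Hindbrain media contained is not given in the sources used here.

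MEIS and PBX proteins are homeodomain proteins of the TALE class, named for a loop extension of residues in the homeodomain. A MEIS protein binds a PBX protein directly, and the pair joins HOX proteins on DNA, which sharpens the choice of site. MEIS proteins recognise the core TGACAG, and PBX with HOX recognises sites of the form TGATNNAT. In the vertebrate hindbrain these partners are known to act with the early HOX genes in rhombomere identity, and MEIS genes are known targets of retinoic acid signalling.

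Each group was represented by 1 list of peak positions without a score. Replicate error cannot be given for any value, read depth is unknown, and differences compare lists and not conditions. On chromosomes 1 to 22, X and Y the lists held 167792 peaks (aNE) to 313095 (pNE_H) and covered 75.5 to 129 Mb. Coverage of a window is therefore given as deposited, in bp inside peaks, or as adjusted coverage, in bp of the window inside peaks per Mb covered by the list. A region with no peak is one where none was called, which is not the same as closed chromatin. Markers of the labelled states were mostly without contrast at this level, since 19 of 23 marker promoters had a peak in all 10 lists. The promoters of SOX1, PAX6, SOX2 and CDH2 were among them, and so were those of the posterior genes EGR2 and GBX2 and of TBXT, MIXL1, TBX6 and GATA6, which belong to other germ layers. HOXB1, a posterior gene, had a promoter peak in hPSC, DE, aNE, pNE and the 3 pNE-derived lists and in none of the 3 aNE-derived ones. OTX2, an anterior gene, had one in every list but pNE_T and pNE_H, and KRT8, a gene of surface ectoderm, had none in aNE, aNE_H, pNE_M and pNE_H. NANOG, a pluripotency gene, had one in the hPSC, DE, aNE, pNE and aNE_T lists and in no other. The promoters of the pluripotency genes DPPA4, LIN28B and ZFP42 had a peak in all 10 lists, as did the anterior HESX1, LHX2 and FEZF1. Over the 320 regions, pNE had a higher Jaccard index (regions open in both over regions open in either) with the aNE-derived lists, 0.669 to 0.686. With the pNE-derived lists it was 0.511 to 0.610. The number of regions open in both was alike, 108 to 120 with the aNE-derived and 105 to 121 with the pNE-derived lists. Regions open in either numbered 159 to 175 and 177 to 237, and list length was not adjusted for.

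The promoter table of RefSeq (GRCh38.p14) gave 8 sequences of 300 bases for the 6 genes, each from 250 bases before to 50 after a start site. The 5 sequences below are shown because peaks treated them differently: that of MEIS1 was in a peak in every list, both of MEIS2 in none, the first of MEIS3 in 8 lists and that of PBX3 in 6. All read 5′ to 3′ on the gene's strand, and capitals mark matches on either strand to the motifs named after them.
MEIS1 promoter, chr2:66434875-66435174, plus strand: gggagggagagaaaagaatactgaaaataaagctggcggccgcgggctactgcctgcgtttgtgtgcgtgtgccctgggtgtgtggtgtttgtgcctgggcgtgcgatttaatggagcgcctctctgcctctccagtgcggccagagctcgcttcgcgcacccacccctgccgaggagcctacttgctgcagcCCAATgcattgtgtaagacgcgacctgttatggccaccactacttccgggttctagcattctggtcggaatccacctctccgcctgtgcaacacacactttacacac
MEIS2 promoter 1, chr15:37099057-37099356, minus strand: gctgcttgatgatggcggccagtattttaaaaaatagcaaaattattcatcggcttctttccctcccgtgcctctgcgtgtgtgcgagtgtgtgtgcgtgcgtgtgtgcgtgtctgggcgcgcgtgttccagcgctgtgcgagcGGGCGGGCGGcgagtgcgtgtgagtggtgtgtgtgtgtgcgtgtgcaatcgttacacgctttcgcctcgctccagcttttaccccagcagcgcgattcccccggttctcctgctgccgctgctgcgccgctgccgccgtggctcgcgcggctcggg
MEIS2 promoter 2, chr15:37098647-37098946, minus strand: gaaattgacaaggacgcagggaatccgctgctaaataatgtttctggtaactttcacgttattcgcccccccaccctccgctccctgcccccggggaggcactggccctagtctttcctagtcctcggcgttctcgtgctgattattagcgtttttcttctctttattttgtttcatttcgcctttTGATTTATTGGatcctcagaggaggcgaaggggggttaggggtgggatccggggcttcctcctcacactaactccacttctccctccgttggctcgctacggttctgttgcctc
MEIS3 promoter 1, chr19:47422184-47422483, minus strand: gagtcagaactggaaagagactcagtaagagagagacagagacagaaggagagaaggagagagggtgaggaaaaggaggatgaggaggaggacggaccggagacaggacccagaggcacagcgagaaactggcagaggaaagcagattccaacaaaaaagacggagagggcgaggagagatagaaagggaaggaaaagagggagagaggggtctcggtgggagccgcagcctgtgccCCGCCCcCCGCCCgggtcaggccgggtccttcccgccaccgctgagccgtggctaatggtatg
PBX3 promoter, chr9:125747933-125748232, plus strand: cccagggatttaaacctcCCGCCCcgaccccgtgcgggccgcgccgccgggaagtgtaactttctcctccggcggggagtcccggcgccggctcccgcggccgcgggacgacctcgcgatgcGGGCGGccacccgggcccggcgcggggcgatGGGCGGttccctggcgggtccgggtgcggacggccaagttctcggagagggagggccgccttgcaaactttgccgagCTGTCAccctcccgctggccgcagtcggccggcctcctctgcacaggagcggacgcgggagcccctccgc

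The MEIS core TGACAG was found once in the 8 sequences, on the minus strand of the PBX3 promoter at position -20 relative to the start site, and 14.8% of 22199 coding promoters held it. The composite site TGATNNAT was found once, in MEIS2 promoter 2 at position -64, where it overlaps a CCAAT match on the other strand. Of all promoters 5.21% held TGATNNAT and 34.7% held CCAAT, the letters that the factor NF-Y binds. The MEIS1 promoter held CCAAT at position -57, MEIS3 promoter 2 held it at position -91, and the other sequences did not hold it. GGGCGG, the letters of the GC box, was in MEIS2 promoter 1, MEIS3 promoter 1 and the promoters of PBX2, PBX3 and PBX4, and in 56.3% of all promoters. AGGTCA, the core of retinoic acid receptor sites, and its direct repeats with 1, 2 or 5 bases between were in none of the 8 (AGGTCA was in 11.9% of all promoters). The PBX3 promoter was the most CpG-rich, with 43 CpG (93.6% of promoters had fewer), and that of PBX2 the poorest, with 8.

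Across all coding promoters 67.8% had a peak in all 10 lists and 19.0% had one in none. The PBX4 promoter was covered over all 300 bases in all 10 lists, and that of PBX2 over 295 to 300. At the MEIS1 start site the peak was 232 bp wide in hPSC, 306 bp in DE, 417 bp in pNE and 328 bp in aNE. By day 4 it was 415 bp in aNE_T, 367 bp in aNE_M, 345 bp in aNE_H, 776 bp in pNE_T, 361 bp in pNE_M and 806 bp in pNE_H. The MEIS1 start was thus in a peak from day 0, widest in pNE_T and pNE_H, while pNE_M lay within the range of the aNE-derived lists.

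The start of MEIS3 was the member start site that had no peak in either early list and a peak in every later one. The region chr19:47421656-47422388 had no peak in hPSC or DE. By day 2 it held 506 bp of peak in pNE and 296 bp in aNE, and by day 4 171 bp in aNE_T, 443 bp in aNE_M, 416 bp in aNE_H, 647 bp in pNE_T, 526 bp in pNE_M and 561 bp in pNE_H. As deposited, every pNE-derived value was above every aNE-derived one. This order does not hold per Mb covered by the list (129 Mb in pNE_H, 91.3 Mb in aNE_M and 84.0 Mb in aNE_H), where pNE_H is below aNE_M and aNE_H. The nearest peak to this start lay 1622 bp away in hPSC and 2432 bp away in DE. A second region of the window, chr19:47445998-47446264 in the neighbour SLC8A2, a sodium-calcium exchanger gene, followed the same pattern with 120 to 219 bp in each of the 8 later lists. Of all regions in the genome 0.370% were open in neither hPSC nor DE and in all 8 later lists, and none of the other 5 windows held such a region. The second annotated MEIS3 start, at 47419527, had a peak over 123 to 300 bases of its promoter in all 10 lists.

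MEIS2 and PBX3 each have a table start site inside the annotated gene, with the outer gene end further upstream. Both MEIS2 promoters had 0 bp inside peaks in all 10 lists. The region chr15:37100273-37102034, which contains the outer end of MEIS2 at 37101311, had 1189 to 1686 bp inside peaks in every list. Likewise chr9:125745873-125747736 contains the outer end of PBX3 at 125747373 and had 949 to 1821 bp inside peaks in every list. The PBX3 promoter of the table had a peak in hPSC, aNE, aNE_T, aNE_M, pNE_T and pNE_H, over 162 to 272 of its 300 bases, and none in DE, pNE, aNE_H or pNE_M. These presences followed neither day nor origin.

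**Figure D1:**
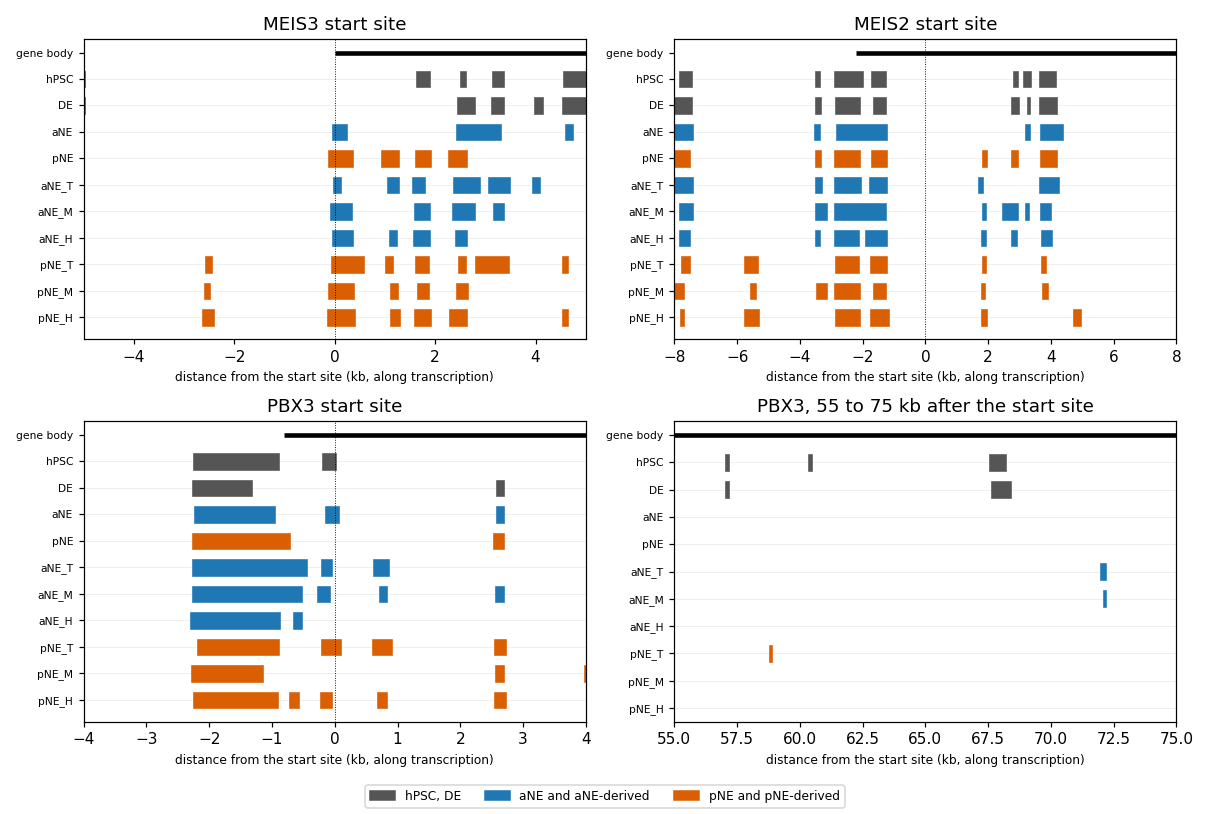
Peaks near the start sites of MEIS3, MEIS2 and PBX3, and further inside PBX3, drawn by distance from the start site along transcription in kb (horizontal axis); each row is 1 list, each box 1 peak, the black bar is the gene body and the dotted line the start site. The MEIS3 start has a box in the 8 later lists and none in hPSC and DE, the MEIS2 start has none in any list, and the PBX3 box near 68.0 kb is in hPSC and DE alone.

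MEIS1, a HOX cofactor known from blood and neural development, lies at chr2:66435125-66573869 (plus strand, 138745 bp) with no other coding gene in its window. Its window held 31 peaks in hPSC, 30 in DE, 35 in pNE and 28 in aNE. By day 4 it held 31 in aNE_T and aNE_M, 29 in aNE_H, 42 in pNE_T, 44 in pNE_M and 54 in pNE_H. The pNE-derived lists stood above the other 7 in peak number, and the aNE-derived lists stayed in the range of the earlier ones. The bases covered were 15271 bp in hPSC, 15356 bp in DE, 18445 bp in pNE and 14932 bp in aNE. The aNE_T, aNE_M and aNE_H lists covered 18051, 17833 and 17966 bp. The pNE_T, pNE_M and pNE_H lists covered 19093, 16899 and 24918 bp. By this measure the origins overlapped, since pNE_M was the lowest of the 6 day 4 lists. Peaks in the window had a median width of 304 bp in pNE_T, 311.5 bp in pNE_M and 416 bp in pNE_H, and of 416 to 501 bp in the aNE-derived lists.

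The MEIS1 window held 63 merged regions, of which 17 were open in all 10 lists (27.0%, with 16.5% over the genome). The widest of these 17, chr2:66574740-66578848, lay just past the end of the gene and held 1333 to 2511 bp of peak per list. A further 5 regions had a peak in all 3 pNE-derived lists and in no aNE-derived list, all inside the gene body. Over the genome 2.33% of regions had this pattern (7.94% in MEIS1), and 99.5% of the 200 genes nearest in length had fewer such regions than MEIS1. Regions of any kind were fewer than in MEIS1 in 84% of these genes. The widest of the 5, chr2:66543462-66544507 at 109 kb from the start site, had 412 bp of peak in pNE_T, 576 bp in pNE_M and 1046 bp in pNE_H. It had no peak in the other 7 lists. The remaining regions of the set included a row of 3 short ones, chr2:66563626-66563829, chr2:66564363-66564606 and chr2:66565328-66565635, at 129 to 130 kb and without a peak in any of the other 7 lists. In these the pNE-derived lists held 134 to 308 bp of peak. The fifth, chr2:66490178-66490880 at 55.4 kb, also had a peak on day 2 in aNE (125 bp) and pNE (356 bp). When 167792 peaks were kept per list, the widest ones, 3 such regions were counted in the window, and 6 when pNE_H was left out.

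One MEIS1 region ran the other way. At chr2:66604851-66605986, 170 kb from the start site in the non-coding gene LINC01798, aNE_T had 1036 bp of peak, aNE_M 778 bp, aNE_H 174 bp, and the pNE-derived lists had none. On day 2 this region had a peak of 135 bp in pNE and none in aNE. The day 2 lists and the day 4 origins thus differed in opposite directions here. A neighbour of the row of 3, chr2:66566940-66567556, had a peak in pNE (441 bp) and not in aNE, and was open on day 4 in aNE_T (185 bp), pNE_T (300 bp), pNE_M (585 bp) and pNE_H (416 bp).

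**Figure D2:**
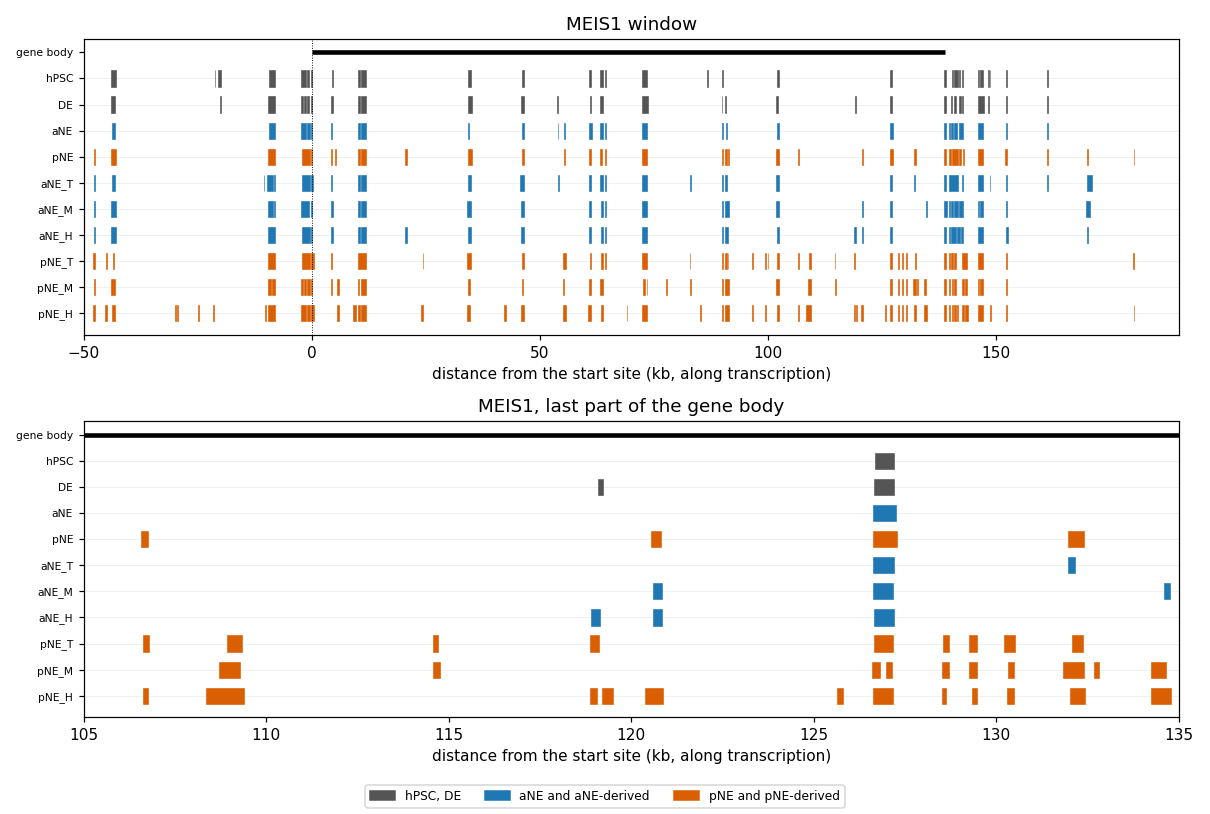
Peaks in the MEIS1 window (upper panel) and in its last part (lower panel), drawn by distance from the start site along transcription in kb (horizontal axis); each row is 1 list, each box 1 peak, the black bar is the gene body and the dotted line the start site. In the lower panel the boxes near 109 kb and the 3 short boxes at 129 to 130 kb appear in pNE_T, pNE_M and pNE_H and in no other list.

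MEIS2, known from brain and neural crest development, lies at chr15:36889204-37101311 (minus strand, 212108 bp), also with no coding neighbour in its window. The window held 36 peaks in hPSC, 37 in DE, 45 in pNE and 35 in aNE. By day 4 it held 47 in aNE_T, 46 in aNE_M, 38 in aNE_H, 59 in pNE_T, 52 in pNE_M and 72 in pNE_H. The 3 pNE-derived lists were again the highest in number of peaks, but not per 100000 peaks of the list, where aNE_T, at 23.8, was above pNE_H. Covered bases were 13165 bp in hPSC, 15803 bp in DE, 19878 bp in pNE and 18304 bp in aNE. The aNE_T, aNE_M and aNE_H lists covered 19665, 19747 and 14943 bp. The pNE_T, pNE_M and pNE_H lists covered 22035, 20125 and 26896 bp. As deposited, the hPSC value was the lowest of all, and aNE_H was below both DE and aNE. By adjusted coverage aNE_H, at 178 bp per Mb, was above DE, at 168.

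Of the 95 MEIS2 regions, 18 were open in all 10 lists and 4 in all pNE-derived and no aNE-derived lists (4.21%, with 2.33% over the genome). The number 4 was one that 92% of genes of like length stayed below. All 4 were without a peak in hPSC, DE, aNE and pNE. The nearest to the start of the gene, chr15:37104417-37104900 at -5.55 kb, had 470 bp in pNE_T, 203 bp in pNE_M and 481 bp in pNE_H. The other named region of the set, chr15:36841230-36841743 past the far end of the gene, had 161, 514 and 163 bp in the same order. With the widest 167792 peaks of each list 1 such region was counted. The number of regions seen only in pNE_H, the longest list, was 17 (17.9%, with 10.6% over the genome), and 99% of genes of like length had fewer. Regions of any kind were fewer than in MEIS2 in 91% of these genes. A region at chr15:36996684-36998032, singled out after its values were seen, had 1233 bp in pNE_T, 762 bp in pNE_H and no peak in the other 8 lists.

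The 2 widest MEIS2 regions with a peak in pNE and none in aNE had peaks in both origins on day 4. At chr15:37131691-37132257, -32.9 kb from the start site, pNE had 420 bp and aNE had none, and all 6 day 4 lists had 273 to 478 bp. At chr15:37038038-37038781 pNE had 249 bp and aNE none, and 5 of the 6 day 4 lists had 122 to 504 bp, all but pNE_T. Neither region had a peak in hPSC or DE.

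MEIS3 lies at chr19:47403124-47422233 (minus strand, 19110 bp), and DHX34 and SLC8A2 share its window. It held 19 to 25 peaks per list, with 25 in hPSC and DE and 19 in aNE_H and pNE_M. Covered bases ran from 7782 bp in pNE_M to 11963 bp in aNE_T. These bases followed neither day nor origin, unlike the region at its start. Peak number as deposited was highest in hPSC and DE, and the day 4 origins overlapped. Per 100000 peaks of the list the MEIS3 window held 11.7 in hPSC, 10.1 in DE and 13.7 in aNE. Of its 34 regions 12 were open in all lists, and 5 had a peak in aNE but none in pNE (14.7%, with 5.54% over the genome). This was more than in 99% of genes of like length, of which 85.5% had fewer regions of any kind. The widest of these 5, chr19:47417152-47417715 inside the gene, had a peak in hPSC, DE and aNE and, of the day 4 lists, in pNE_T and pNE_H. A region at chr19:47424629-47424884, at -2.52 kb, had 132, 138 and 256 bp in pNE_T, pNE_M and pNE_H and no peak elsewhere.

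PBX2, a short gene at chr6:32184733-32190202 (minus strand, 5470 bp) in the major histocompatibility complex, shares its window with 8 other coding genes, among them NOTCH4 and AGER. Its window held 5 peaks in pNE to 12 in pNE_H, over 4189 to 5399 bp. Only 15 regions were found there, of which 5 were open in all lists. The start-site peak was 305 to 514 bp wide. In pNE the window had 4189 bp and in aNE 4809 bp. Peaks on the alternate scaffolds of chromosome 6 were not counted, and their bearing on the PBX2 values and ranks was not tested.

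PBX3 is the longest member, at chr9:125747373-125967377 (plus strand, 220005 bp), and shares its window with MAPKAP1. The window held 35 peaks in hPSC, 41 in DE, 27 in pNE and 21 in aNE. By day 4 it held 31 in aNE_T, 35 in aNE_M, 28 in aNE_H, 31 in pNE_T, 23 in pNE_M and 47 in pNE_H. Covered bases were 11602 bp in hPSC, 13007 bp in DE, 8869 bp in pNE and 8368 bp in aNE. Both day 2 lists were thus below both earlier ones. The aNE_T, aNE_M and aNE_H lists covered 12260, 12511 and 9047 bp and the pNE_T, pNE_M and pNE_H lists 9662, 8161 and 15002 bp, so the origins overlapped.

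Within PBX3, chr9:125815699-125816609 at 68.0 kb had 693 bp of peak in hPSC and 826 bp in DE and none in the 8 later lists. It was 1 of 2 PBX3 regions open in both early lists and no later one, a pattern of 2.77% of regions in the genome (2.53% in PBX3). The origins were split by 3 PBX3 regions that had a peak in hPSC and DE as well. Of these chr9:125774001-125774442 had 140, 131 and 399 bp in pNE_T, pNE_M and pNE_H and no peak in aNE-derived lists. The regions chr9:125779322-125779680 and chr9:125998899-125999124 had 359 and 223 bp in aNE_T, 235 and 181 bp in aNE_M and 211 and 150 bp in aNE_H, and no peak in pNE-derived lists. Over the genome 0.633% of regions were open in all aNE-derived and no pNE-derived lists. The PBX3 count of 2 became 4 without pNE_H, 7 without the Hindbrain pair and 1 with the widest peaks.

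PBX4, known for its expression in testis, lies at chr19:19561713-19618687 (minus strand, 56975 bp) among 8 other coding genes. It held 19 to 26 peaks per list over 11165 bp (pNE_M) to 16247 bp (pNE_H), with 16153 bp in hPSC. Of its 34 regions 14 were open in all lists (41.2%), the largest share of the 6 windows. A region in the gene body, chr19:19602447-19603506 at 15.7 kb, had 1060 bp in hPSC, 778 bp in DE, 655 bp in aNE and 586 bp in aNE_T, and no peak in pNE, aNE_M, aNE_H or the pNE-derived lists. Of the day 4 lists this peak was thus in aNE_T alone. Another, chr19:19570151-19570774, had a peak in hPSC, DE, aNE, aNE_T, aNE_M and pNE_T. The 2 PBX4 regions open in all aNE-derived and no pNE-derived lists lay inside the neighbours NDUFA13 and ATP13A1. Without the Hindbrain pair there were 4, and with the widest peaks 1.

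Gene length sets how many peaks a window can hold, so each member was ranked by covered bases among the 200 coding genes nearest in length, 100 shorter and 100 longer. MEIS1 had a median percentile of 95.75 over the 10 lists (86.5 to 98.5), with 1.59 to 2.19 times the median of its 200 genes. PBX4 had a median percentile of 95.5 (91 to 98.5). MEIS2 had 89.75, with 64.5 in hPSC, 70 in DE and 77.5 to 96.5 later. MEIS3 had 81.25 (70.5 to 86.5), PBX3 44.25 (33 to 60.5) and PBX2 40.75 (32 to 46). The MEIS genes thus carried more open bases than most genes of their length, and PBX2 and PBX3 lay near or below the middle. Ranked among genes with a like number of coding neighbours as well, PBX4 was at 72.5, PBX2 at 7.5, MEIS1 at 98.5, MEIS2 at 91 and MEIS3 at 93.25. For PBX4 fewer than 200 such genes were available, so its rank there took in genes less like it in length. With the gene body alone PBX4 was at 77.75 and MEIS2 at 78.25, MEIS1 at 91 and MEIS3 at 92.75.

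**Figure D3:**
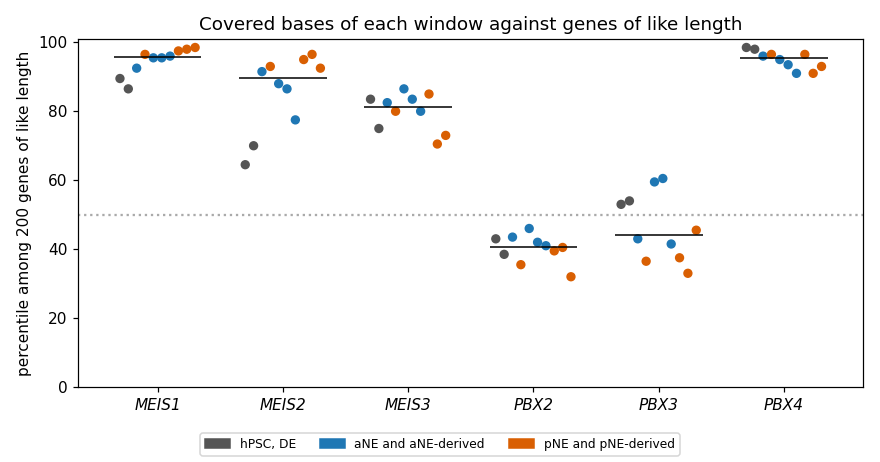
Percentile of the covered bases of each gene window among 200 coding genes of like length (vertical axis), by gene; each point is 1 list in the order hPSC to pNE_H and the black line is the median of the 10 lists. MEIS1 and PBX4 lie at or above 86.5 in every list and PBX2 at or below 46, while the 2 grey points of MEIS2 at the left, 64.5 and 70, lie below its later ones.

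The steps from day 0 to day 2 were compared by adjusted coverage, and a fold of 1.5 was taken as a call. From hPSC to DE 0 of the 6 members were called (1.33% of genes were called higher and 1.02% lower), with folds from 0.821 for MEIS3 to 1.08 for MEIS2. From DE to aNE 0 were called (0.794% higher and 2.14% lower). MEIS2 came nearest, with 242 bp per Mb in aNE and 168 in DE, a fold of 1.44 where the median gene had 1.05 and 98.7% of genes had a lower fold. From DE to pNE 0 were called (2.34% higher and 3.29% lower), and MEIS2 had a fold of 1.37 and MEIS1 of 1.31. PBX3 was the lowest member in both, at 0.801 in aNE and 0.743 in pNE. The last 2 comparisons share the DE list.

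Inside the gene body, apart from the flanks, MEIS2 passed the fold in both steps from DE. The body held 5885 bp in hPSC, 7582 bp in DE, 11104 bp in pNE and 10306 bp in aNE. Its adjusted fold was 1.69 in aNE over DE, in a comparison where 5.30% of 11379 genes were called higher, and 1.60 in pNE over DE, where 5.51% were. With 10 kb on each side the folds were 1.58 and 1.51. This measure was among the alternatives of the processing and was not the one chosen as main.

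The central contrast of the series, pNE against aNE on day 2, called 0 of the 6 members (1.87% of genes higher and 1.18% lower). MEIS1 had 214 bp per Mb in pNE and 198 in aNE, a fold of 1.08 where the median gene had 0.922. MEIS2 had a fold of 0.951, MEIS3 0.877, PBX3 0.928 and PBX4 0.908. PBX2 had the lowest, 0.763, with 48.6 and 63.7 bp per Mb, and 6.33% of genes had a lower fold. The members' median fold of 0.918 was close to that of all genes, 0.922.

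**Figure D4:**
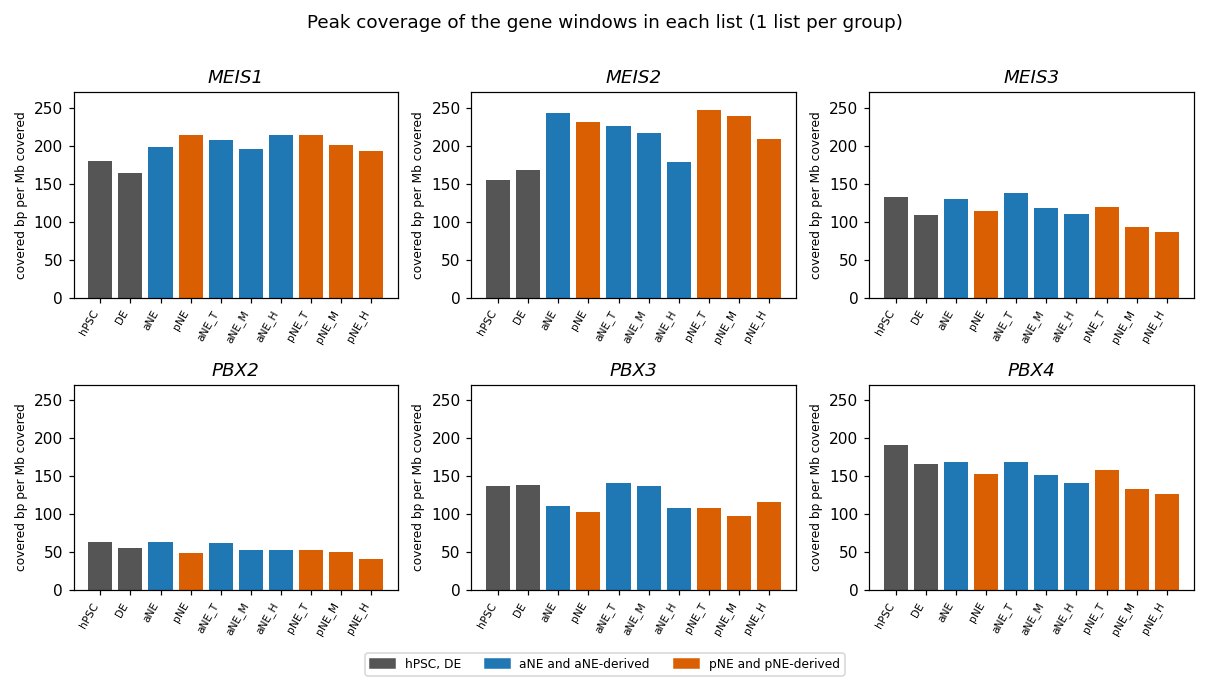
Adjusted coverage of each gene window, in bp inside peaks per Mb covered by the list (vertical axis, from 0), with 1 bar for each of the 10 lists; there is 1 list per group and so no error bar. MEIS2 is lowest in hPSC (155) and DE (168), PBX3 is lower in aNE (111) and pNE (103) than in DE (138), and PBX2 is the lowest gene in every list.

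On day 4 each medium was present once per origin, so 3 pNE-derived lists were set against 3 aNE-derived ones. MEIS1 was the member whose peak number separated the origins after adjustment for list length. Per 100000 peaks of the list, its window held 19.5 in pNE_T, 20.2 in pNE_M and 17.2 in pNE_H, and 15.7 in aNE_T and 14.2 in both aNE_M and aNE_H. The means were 19.0 ± 1.55 and 14.7 ± 0.850 (SD over 3 lists that differ in medium), a ratio of 1.29 with a median of 0.907 over all genes. In 5.15% of genes all 3 pNE-derived lists were above the aNE-derived ones. The exact permutation test (two-sided, 3 lists against 3) gave p = 0.1, the smallest it can give. Inside the gene body, MEIS1 held 29 peaks in pNE_T, 29 in pNE_M and 33 in pNE_H, and 18, 17 and 18 in the aNE-derived lists. The adjusted ratio there was 1.45 (exact permutation p = 0.1, with 5.27% of genes above in all lists), and adjusted covered bases of the body were above in all 3 lists as well (ratio 1.20, 6.56% of genes).

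By adjusted coverage of the whole window MEIS1 did not separate the origins: it had 213, 201 and 193 bp per Mb in pNE_T, pNE_M and pNE_H and 207, 195 and 214 in aNE_T, aNE_M and aNE_H (exact permutation p = 0.7). PBX2 was the member that did, lower in the pNE-derived lists at 52.5, 50.1 and 40.8 bp per Mb against 61.9, 52.7 and 52.6. The groups almost touch, and 28.0% of all genes were lower in the same way. The exact permutation p was 0.1, and with the widest peaks of each list the groups overlapped. MEIS2 had a ratio of 1.12 (exact permutation p = 0.3), MEIS3 of 0.816 (p = 0.3), PBX3 of 0.833 (p = 0.3) and PBX4 of 0.902 (p = 0.3), with overlapping lists, where the median gene had 0.906. Each medium gives a pair of lists, and 4 members lay on one side in all 3 pairs, with fold changes in the order Telencephalon, Midbrain and Hindbrain. MEIS2 had 1.09, 1.10 and 1.17, and 10.4% of genes were higher in all 3 pairs. MEIS3 had 0.866, 0.787 and 0.786, PBX4 0.935, 0.873 and 0.895 and PBX2 0.848, 0.950 and 0.777, and 44.1% of genes were lower in all 3 pairs. The exact sign-flip permutation test over 3 pairs (two-sided) gave p = 0.25 for each of these 4, the smallest it can give. PBX3 had 0.768, 0.707 and 1.08 and MEIS1 1.03, 1.03 and 0.902, with no common side. As deposited, without adjustment, MEIS2 had more covered bases in every pNE-derived list than in any aNE-derived list, as did 8.33% of genes. No adjustment over the family of 6 members was made, since the smallest p of the design is 0.1.

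**Figure D5:**
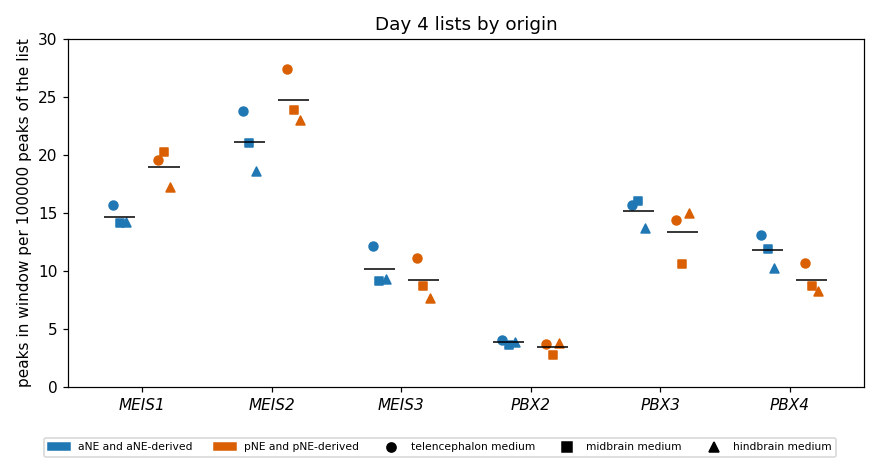
Peaks in each gene window per 100000 peaks of the list (vertical axis, from 0) in the 6 day 4 lists; circles, squares and triangles are the Telencephalon, Midbrain and Hindbrain media, colours the origin, and lines the means of 3 lists. In MEIS1 the pNE-derived points, 17.2 to 20.2, lie above the aNE-derived ones, 14.2 to 15.7, and in the other 5 genes the origins overlap.

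Between media of 1 origin, Hindbrain against Telencephalon called 0 of the 6 members in the aNE-derived lists (2.70% of genes higher and 2.66% lower) and 0 in the pNE-derived lists (1.77% higher and 2.75% lower). In the aNE-derived pair PBX3 had the lowest fold, 0.766, with 108 bp per Mb in aNE_H and 141 in aNE_T, followed by MEIS2 at 0.788. In the pNE-derived pair MEIS3 had the lowest, 0.728, with 86.6 and 119 bp per Mb. The median gene had 0.960 and 0.896. The PBX4 gene body passed the fold in the aNE-derived pair, with 1793 bp in aNE_H and 4438 bp in aNE_T, an adjusted fold of 0.419 where 7.72% of genes were called lower.

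Across all 10 lists, adjusted coverage varied least in MEIS1, whose highest list had 1.31 times the lowest (9.25% of genes varied less), and 1.45 to 1.59 times in the other 5. The members fell into no single pattern. As a description over 10 lists that share cells and processing, Pearson's r was 0.875 to 0.882 between MEIS3, PBX2 and PBX4, 0.63 between MEIS1 and MEIS2 and -0.60 between MEIS1 and PBX3. Among 13885 genes with a mean of at least 5000 bp, CXXC4 (r = 0.925), AFAP1L2 (r = 0.906) and ITGAV (r = 0.894) were most like MEIS1. ST8SIA2 (r = 0.938), ILDR2 (r = 0.935) and ADAMTS9 (r = 0.928) were most like MEIS2, and SLC39A9 (r = 0.954) was most like PBX3. For MEIS3 (POLA1), PBX2 (COMMD5) and PBX4 (TCP10L) the nearest gene had r of 0.978, 0.990 and 0.988, but 255, 855 and 578 genes had an r over 0.9.

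Genes that work with these factors were read in the same way. Among 8 HOX partner genes 0 were past the fold in the day 2 contrast, and on day 4 all but HOXC4 had every pNE-derived list above every aNE-derived one (7 of 8, with 5.59% of all genes). The largest ratio was that of HOXB2, with means of 145 and 89.2 bp per Mb, followed by HOXB1 with 136 and 88.3. The HOXB windows overlap one another, as do those of HOXD3 and HOXD4, so the 7 are not separate observations. Among 8 retinoic acid genes RARB, a retinoic acid receptor, was separated the same way, with 343, 314 and 356 bp per Mb in pNE_T, pNE_M and pNE_H and 228, 221 and 224 in aNE_T, aNE_M and aNE_H. The other TALE genes PKNOX1, PKNOX2, TGIF1, TGIF2 and MKX had 0 of 5 higher and 1 lower, MKX. Of all genes 28.0% were lower in the same way. No gene of these 3 lists was past the fold in any of the 6 comparisons of single lists.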

How the data were processed

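The data were 10 deposited peak lists, 1 for each group of 3 libraries, which give where each peak begins and ends in bp (unit: other). Per the submitters' processing notes, the authors used hg38, Bowtie2, MACS2, bedtools, FastQC, featureCounts, edgeR and deepTools. Thresholds, the role of each tool and the way replicates were combined are not given in the sources used here. Scaffolds were left out, and gene positions came from a GRCh38.p14 table. Covered bases and peaks (overlap of at least 1 bp) were counted per window, and genes with a mean of at least 1000 bp were compared, with a call at 1.5-fold. Peaks of all lists that overlapped by 1 bp were merged into regions. Origin was tested by exact permutation of the 6 day 4 lists and, chosen after seeing the data, by sign flips of the 3 pairs of 1 medium. The named regions were the region at each start site and the 2 widest of each pattern of presence, and for each member the 3 genes of highest correlation. Regions outside this rule, such as the row of 3 in MEIS1 and the early PBX3 region, were chosen after their values were seen. The members, lists and tests were chosen with earlier results of these data known. Counting was tested on simulated peaks. Python 3.11.15, numpy 2.4.6, pandas 2.3.3 and scipy 1.17.1 were used.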

Additional observations from a re-analysis of the deposited data

Results flagged for a closer look

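The response to Hindbrain against Telencephalon medium ran in opposite directions by origin in 2 members by adjusted coverage, a difference that was not tested because each pair is 1 list against 1. The adjusted coverage of MEIS1 had a fold of 1.03 in the aNE-derived pair and 0.904 in the pNE-derived pair. Set against the median gene of each pair, these folds were 1.08 and 1.01. By peak number, not set against the median gene, they were 0.907 and 0.884. By either of these readings MEIS1 lay on one side in both pairs. With other windows it lay on opposite sides of 1: 1.09 and 0.948 (gene body alone), 1.07 and 0.855 (10 kb each side), 1.01 and 0.961 (100 kb each side). The same held with the widest peaks (1.07 and 0.965) and for bases as deposited (0.995 and 1.31). The adjusted coverage of PBX3 had folds of 0.766 and 1.08. With the widest peaks of each list these were 0.702 and 0.987, both below 1. With every other window or measure tried, the PBX3 folds stayed on opposite sides of 1. They were 0.738 to 0.876 in the aNE-derived pair and 1.04 to 1.55 in the pNE-derived pair. Set against the median gene of each pair, they were 0.797 and 1.20. The pNE_H list is the longest, with 313095 peaks, and its part in these values was not tested. Over all genes the median fold was 0.960 in the aNE-derived pair and 0.896 in the pNE-derived pair.

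Peaks on scaffolds were used in no comparison. The alternate scaffolds of chromosome 6, the chromosome of PBX2, held 2752 peaks in DE and 1485 in aNE_H, the highest and lowest of the 10 lists, with no control list to set beside them. As a share of all peaks on chromosome 6 and its scaffolds this was 8.78% in pNE_H to 17.6% in hPSC. Whether leaving them out changed the PBX2 values was not tested.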

How the results depend on the processing

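No paired analysis was possible by replicate number because the lists hold no values per replicate, so no fit with a replicate block was run. Of 62 alternative values of the main counts 42 stayed within 1.5 times or were 0 in both settings. These are counts, and do not show that the same members were called. Among the 42 are those at a fold of 2, which could not differ, since a count of 0 at 1.5-fold is 0 at any higher fold. With a call at 25% above or its inverse the members called were 1 for pNE against aNE on day 2 (17.5% of all genes in either direction), 2 and 3 for Hindbrain against Telencephalon in the aNE-derived and pNE-derived pairs (20.4% and 29.7%), 1 for aNE against DE (17.5%) and 3 for pNE against DE (20.8%). With the gene body alone there were 1 in the aNE-derived pair (PBX4 lower, as 7.72% of genes), 2 for aNE against DE and 2 for pNE against DE (MEIS2 higher and PBX2 lower in both, with 5.30% and 4.76% of genes, then 5.51% and 7.45%). The PBX2 body is under the filter on low coverage. With 10 kb each side there was 1 in each of these 3 (PBX4 lower, MEIS2 higher in both, with 4.22%, 3.02% and 3.05% of genes). Without adjustment there was 1 in the pNE-derived pair (PBX3 higher, as 21.8% of genes) and 1 for aNE against DE (PBX3 lower, as 9.78%), and by peak number 1 for pNE against DE (PBX2 lower, as 8.34%). Members separated by origin numbered 1 in the main measure (PBX2 lower, as 28.0% of genes), 0 with 10 kb each side and 0 with the widest peaks. The count was 1 as well in 3 settings that called another member, in the other direction. These were the gene body alone and peak number (MEIS1 higher, as 6.56% and 5.15% of genes) and bases as deposited (MEIS2 higher, as 8.33%). With 100 kb each side there were 3 (MEIS1, MEIS3 and PBX2, all lower, as 32.3% of genes). There were 3 without the Telencephalon pair (MEIS3, PBX2 and PBX4, all lower, as 45.0%) and 3 without the Hindbrain pair (MEIS2 higher, as 12.9%, PBX2 and PBX3 lower, as 39.4%). Paired by medium, a reading added after the data were seen, 4 members lay on one side in all 3 pairs (MEIS2 higher, as 10.4% of genes, MEIS3, PBX2 and PBX4 lower, as 44.1%). The cause was not tested. Members at or above the percentile of 90 numbered 2 (MEIS1 and PBX4), or 3 with gene number matched (MEIS1, MEIS2 and MEIS3), and with the gene body alone they were MEIS1 and MEIS3. Depth is unknown, so a missing peak cannot be told from a shallow library.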
